A study of Mus musculus with 6 samples.

Results

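The 54 genes described here carry the symbols of centromere and DNA replication genes, though some, such as Cenpj and Mcm3ap, act elsewhere. They were chosen by symbol alone, from 53379 genes in the count files, and no measured value entered the choice. The symbols cover the CENP genes, the NDC80 complex, the origin recognition complex, the loaders Cdc6 and Cdt1, the MCM genes, Cdc45, the GINS genes and replication factor C. All 54 are annotated as protein coding, no pseudogene carried a matching symbol, and all 54 had enough counts to be among the 16929 genes tested.

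Centromeres are marked by the histone variant CENP-A, on which a network of CENP proteins assembles and, in mitosis, the NDC80 complex that grips spindle microtubules. Replication origins are licensed when the origin recognition complex, CDC6 and CDT1 load the ring of MCM proteins onto DNA. CDC45 and GINS then join that ring to form the working helicase, and replication factor C loads the PCNA clamp that holds the polymerases. The protein pulled down, hnRNPK, binds single-stranded nucleic acid rich in cytosine through its KH domains.

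The data were 3 libraries of RNA that came down with an antibody against hnRNPK and 3 libraries of total RNA. Both groups came from Min6, a mouse insulinoma line, at passage 31, after 30 h in 25 mM glucose with 500 µM palmitic acid, which the labels call glucolipotoxicity. Immunoprecipitation (IP) used lysate with 200 µg of protein, and total RNA came from a 10% input of lysate. The comparison asks which RNAs were over- or under-represented with hnRNPK relative to the lysate. Since all cells had the same treatment, no comparison here bears on it, and no control-antibody IP was analysed here. Min6 is 1 transformed, dividing line, so the levels of cell-cycle genes in it stand for no resting islet. Whether replicate libraries stem from separate cultures is not said in the labels, so the p-values given reflect only library-to-library spread, possibly technical.

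Counts assigned to genes ran between 38764925 and 46222181 per IP library and between 46185284 and 52735957 per total RNA library. The common biological coefficient of variation was 42.6% for the IP group and 12.1% for the total RNA group. All 12 beta cell markers examined were detected, at a summed 6353 to 7598 CPM (counts scaled to library size) in IP libraries and 20846 to 30174 CPM in total RNA libraries. In total RNA most of that sum came from Ins2 and Iapp, at means of 10471 and 14161 CPM, and both were depleted in the IP. In the test used below 5 of the 12 markers were depleted (41.7%, beside 33.6% of all tested genes). The other 7 were enriched (58.3%, beside 28.9%), and the median log2 fold change, IP minus total RNA, was 0.42. Of 9 exocrine and duct markers, 5 were at 0 in every library, and all 9 summed to 0.118 to 1.21 CPM in IP libraries and 0.434 to 0.631 CPM in total RNA libraries. The 7 markers of other islet cells summed to 127 to 175 CPM in IP libraries and 139 to 174 CPM in total RNA libraries. The 10 stromal, endothelial and immune markers summed to 6.58 to 9.93 CPM in IP libraries, against 3.12 to 4.43 CPM in total RNA libraries, and their part in the results was not tested. The mRNA of Hnrnpk, which is no check of an IP of its protein, had 148, 121 and 154 CPM in IP libraries and 177, 195 and 192 CPM in total RNA libraries.

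Since hnRNPK favours cytosine, the most cytosine-rich stretch of 30 bases within 1 exon of the mRNA is shown for 7 of the genes. They are the 3 with the lowest IP level relative to total RNA (Cenph, Cenps and Gins1), the 3 with the highest (Mcmbp, Orc5 and Mcm9), and Cenpx, whose mRNA was densest in the searched tetramers. The tetramers TCCC and CCCT, searched on the mRNA strand only and allowed to overlap, are in capitals. The choice of these 7 was made after their values were seen, and all sequences are from GENCODE release M21 on GRCm38.
Cenph: catctccttgccaacgttTCCCcgtgaccc
Cenps: cgcttcgcgctttgaCCCTcggcgccgccc
Gins1: aggaaacgtcctcactggaccTCCCCCTcc
Cenpx: gcctccagacacagCCCTccTCCCgccccc
Mcmbp: gtcTCCCccccacCCCTccggccgctggcc
Orc5: TCCCCTgcgctttgaacgtgccagcagccc
Mcm9: cccgcctctcTCCCTgcTCCCgccTCCCgc
The stretches of Cenph (chr13:100759835-100759864, minus strand), Gins1 (chr2:150930961-150930990, plus strand), Cenpx (chr11:120711115-120711144, minus strand) and Orc5 (chr5:22486805-22486834, minus strand) lie in 3′ UTRs. Those of Cenps (chr4:149137589-149137618, minus strand) and Mcmbp (chr7:128740391-128740420, minus strand) lie in 5′ UTRs, and that of Mcm9 (chr10:53630011-53630040, minus strand) lies in coding sequence. They held 14 cytosines in Cenph, 15 in Cenps, 14 in Gins1, 19 in Cenpx, 19 in Mcmbp, 13 in Orc5 and 20 in Mcm9. Over all 54 mRNAs the richest stretch held 11 to 21 cytosines, with a median of 15. A richest stretch that also held one of the tetramers was found in 34 of 54 genes (63.0%), beside 71.7% of 13475 tested coding genes.

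The mRNAs of these genes were mostly under-represented in the IP. Of the 54, 43 were depleted (79.6%) by edgeR's quasi-likelihood test at a Benjamini-Hochberg adjusted p under 0.05, where 33.6% of all 16929 tested genes were. Only Mcm9 was enriched (1.85%), where 28.9% of all tested genes were, and 10 genes passed in neither direction. At least 2-fold depletion was seen in 28 (51.9%), against 24.5% of all tested genes. All 3 IP libraries lay below all 3 total RNA libraries for 47 of the 54, where 39.3% of all tested genes did so. The median log2 fold change was −1.11 over the 54, which is 2.15-fold lower in the IP, and −0.07 over all tested genes. No RNA of known amount was used as a yardstick, so each fold change is relative to the rest of the same library.

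**Figure D1:**
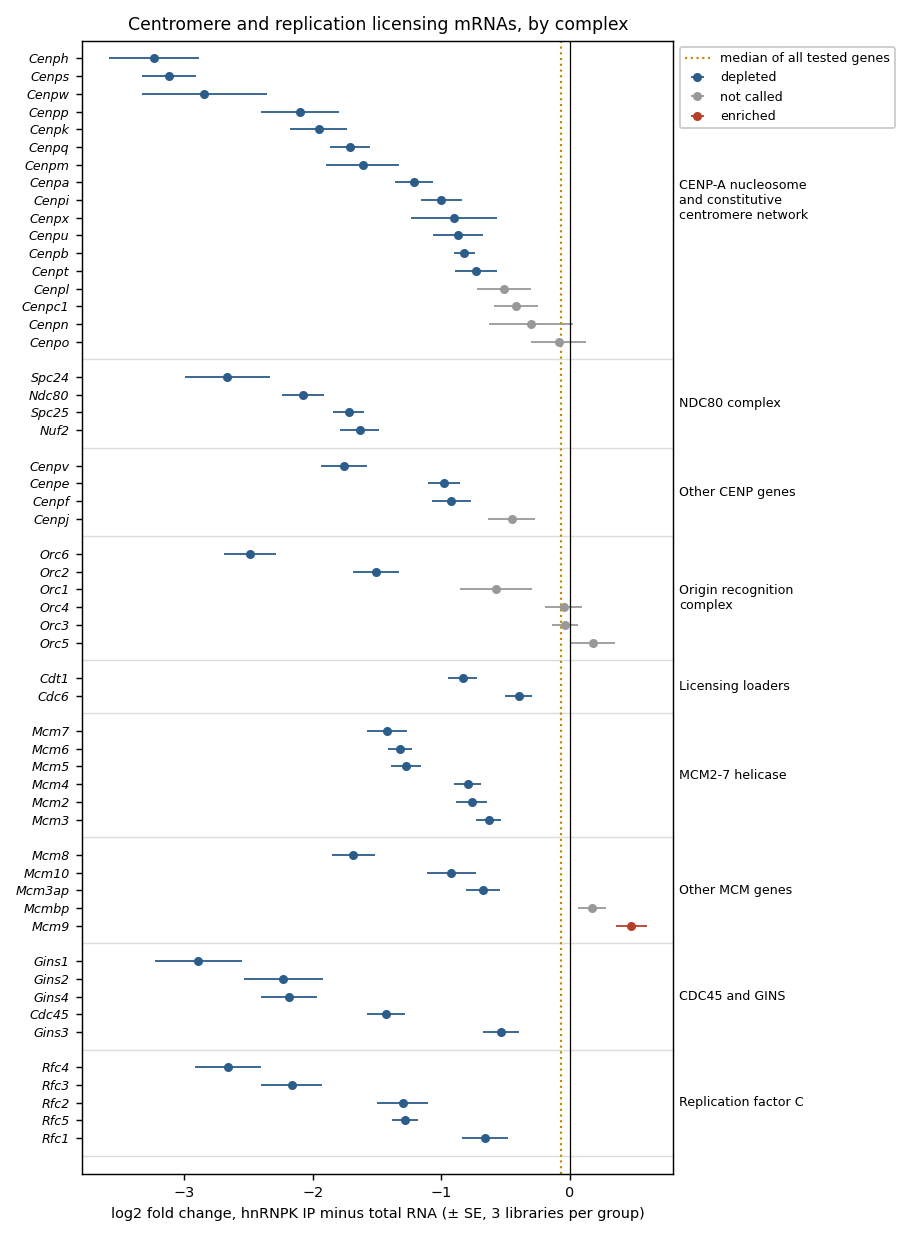
The log2 fold change of each of the 54 genes, hnRNPK IP minus total RNA, is drawn on the x axis with its standard error (3 libraries per group), in rows grouped by complex and coloured by call. All points but those of Orc4, Orc3, Orc5, Mcmbp and Mcm9 lie left of the dotted line, the median of all tested genes at −0.07, and Mcm9 alone is enriched.

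Summed over the 54 genes, the level was 1856, 1701 and 1871 CPM in IP libraries, against 3866, 4017 and 4016 CPM in total RNA libraries. The IP libraries differed among themselves more than the total RNA libraries did. The SD was 2.71% (Cdc6) to 60.1% (Cenpw) of the mean over IP libraries, median 18.6%, and 0.531% (Mcm3) to 19.4% (Cenpx) over total RNA libraries, median 7.09%. IP library 2 was the lowest of the IP libraries for 28 genes and each of the other two for 13. Relative to the mean of total RNA, the genes' median log2 ratio was −1.01, −1.34 and −1.17 in IP libraries 1, 2 and 3.

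Among the 17 genes of the CENP-A nucleosome and the constitutive centromere network, 13 were depleted (76.5%) and none was enriched. Over all tested genes, 33.6% were depleted and 28.9% enriched. The median log2 fold change of the 17 was −1.0. Cenph, a subunit of the network, had the lowest value of all 54 genes. It reached 2.92, 1.18 and 1.52 CPM in IP libraries and 14.6, 20.2 and 18.2 CPM in total RNA libraries. The groups did not overlap, and the log2 fold change was −3.24 ± 0.35 (SE, n = 3 per group), with an edgeR quasi-likelihood p, adjusted by Benjamini-Hochberg, of 9.59e-05. Cenps, a histone-fold protein that also works in DNA repair, had 1.18, 1.33 and 1.37 CPM in IP libraries and 10.6, 12 and 11.3 CPM in total RNA libraries. Its 3 IP values lay close together, and its log2 fold change was −3.12 ± 0.21 (edgeR adjusted p = 8.22e-06). Cenpw, the histone-fold partner of CENP-T, had 1.03, 4.58 and 4.52 CPM in IP libraries and 20.0, 27.5 and 25.6 CPM in total RNA libraries. One IP library was far lower than the other two, though all stood below total RNA, and the log2 fold change was −2.85 ± 0.49 (edgeR adjusted p = 0.00119).

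Histone-fold subunits were not all alike. Cenpt, which anchors the NDC80 complex, was depleted by a log2 fold change of −0.73 ± 0.16, and Cenpx, the partner of CENP-S, by −0.90 ± 0.33. Cenpx had 14.4, 6.98 and 18.4 CPM in IP libraries and 19.2, 27.3 and 27.8 CPM in total RNA libraries. Its highest IP library came within 1 CPM of its lowest total RNA library, and its adjusted p was the highest of the 43 depleted genes (edgeR, 0.0452). Without IP library 1 its adjusted p was 0.102, and without total RNA library 1, 2 or 3 it was 0.0569, 0.135 or 0.14. An offset was also tried that removes the trend of log2 fold change with gene length (exonic bases) over all genes. With it, the log2 fold change of Cenpx was −0.11 (edgeR adjusted p = 0.801). Cenpa itself, the histone variant that defines the centromere, fell to 25.1, 29.9 and 22.0 CPM in IP libraries, against 51.6, 62.0 and 64.2 CPM in total RNA libraries. Its log2 fold change was −1.21 ± 0.15. Cenpb, which binds a motif in centromeric satellite DNA and has a single exon, had 174, 189 and 171 CPM in IP libraries and 311, 312 and 320 CPM in total RNA libraries. Per kilobase of exon it was the highest of the network, at 64.3 CPM in total RNA, and its log2 fold change of −0.82 ± 0.08 had a small error.

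The other depleted genes of the network ranged between −2.10 (Cenpp) and −0.87 (Cenpu), with Cenpk at −1.96, Cenpq at −1.71, Cenpm at −1.61 and Cenpi at −1.0. Cenpp shares 12.6% of its exonic bases with other genes and Cenpu 26.7%, so reads there cannot be split between genes unless counting used strand, a setting not given in the sources used here. The 4 genes of the network that passed in neither direction were Cenpl, Cenpc1, Cenpn and Cenpo. Cenpl and Cenpn encode partners that bind CENP-A nucleosomes, and Cenpc1 encodes CENP-C, which also reads those nucleosomes. Cenpc1 had 20.6, 20.3 and 14.2 CPM in IP libraries and 25.1, 25.2 and 23.0 CPM in total RNA libraries. These groups did not overlap, but the log2 fold change of −0.42 ± 0.17 missed the threshold (edgeR adjusted p = 0.0641); without IP library 1 or 2 it was −0.55 or −0.50 and passed. It also passed with library totals alone (−0.85), limma-voom (−0.45), the gene length offset (−0.70) and that offset with the replicate block (−0.76). Cenpl, at −0.51 ± 0.21, also passed without IP library 2, at −0.74, and under the same 4 settings, at −0.95, −0.55, −0.80 and −0.87. Cenpn had 20.2, 8.34 and 21.9 CPM in IP libraries and 19.5, 22.3 and 20.4 CPM in total RNA libraries. IP library 2 alone was low, and without it the log2 fold change of −0.30 ± 0.32 became 0.02. Cenpo, with 10.4, 11.3 and 16 CPM in IP libraries and 11.1, 14.1 and 14.8 CPM in total RNA libraries, overlapped between groups. Its log2 fold change was −0.09 ± 0.21, which became 0.01 without IP library 1 and 0.03 without total RNA library 3. Cenpo shares 22.5% of its exonic bases with other genes.

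All 4 genes of the NDC80 complex were depleted, each at least 2-fold, with a median log2 fold change of −1.90. Of all tested genes, 33.6% were depleted, and 24.5% at least 2-fold. NDC80 and NUF2 form the arm that meets the microtubule, and SPC24 and SPC25 form the base that meets the centromere. Ndc80 had 10.4, 9.59 and 13.6 CPM in IP libraries and 43.3, 49.1 and 49.6 CPM in total RNA libraries, a log2 fold change of −2.08 ± 0.16. Nuf2 had 13.6, 19.6 and 15.9 CPM in IP libraries and 48.5, 51.9 and 52.2 CPM in total RNA libraries, a log2 fold change of −1.64 ± 0.15. For both arm genes every IP library was under the lowest total RNA library by a wide margin. Spc24 had 6.14, 5.61 and 13.4 CPM in IP libraries and 46.5, 54.9 and 59.3 CPM in total RNA libraries, a log2 fold change of −2.67 ± 0.33. IP library 3 was the highest of the IP libraries for Spc24 and still far below total RNA.

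Spc25 stood apart from its partners in level, not in direction. It had 287, 243 and 324 CPM in IP libraries and 863, 972 and 979 CPM in total RNA libraries. The log2 fold change was −1.72 ± 0.12 (edgeR adjusted p = 9.99e-06). In total RNA it ranked 58 among 16929 tested genes by CPM. Per kilobase of exon its total RNA level was 294 ± 20.5 CPM (SD, n = 3), against 20.8 for Spc24, 8.02 for Nuf2 and 7.29 for Ndc80, although the 4 proteins form 1 complex. Spc25 (chr2:69193895-69206194, minus strand, GRCm38) starts 4878 bases from the start of G6pc2 on the opposite strand, which encodes the islet-specific glucose-6-phosphatase catalytic subunit. G6pc2 had 724, 591 and 792 CPM in IP libraries and 1258, 1398 and 1411 CPM in total RNA libraries. Its log2 fold change was −0.95 ± 0.12, and the annotated exons of G6pc2 and Spc25 share no base. Whether the level of Spc25 is linked to this neighbour was not tested.

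**Figure D2:**
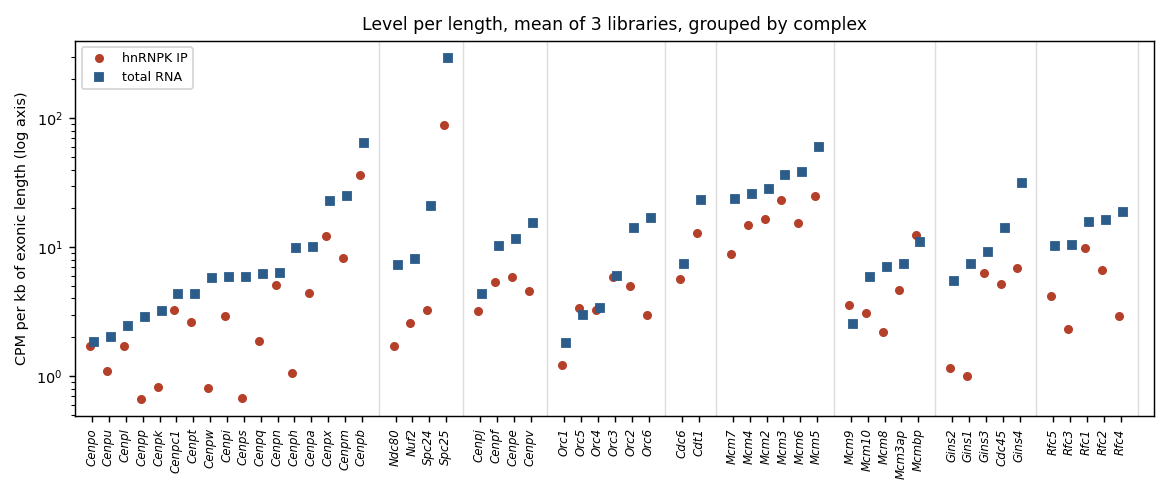
Mean CPM per kilobase of exonic length is drawn on a log axis for each of the 54 genes, with hnRNPK IP as circles left of total RNA as squares (3 libraries per group). Spc25 is far above every other gene in both groups, at 294 CPM per kilobase in total RNA.

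Among the other genes named CENP, 3 of 4 were depleted, beside 33.6% of all tested genes. Cenpe, a kinetochore kinesin, had a log2 fold change of −0.98 ± 0.13, and Cenpf, a large coiled-coil kinetochore protein, −0.92 ± 0.15. Cenpv was lowest, with 8.74, 6.79 and 9.2 CPM in IP libraries and 23.4, 31 and 29.3 CPM in total RNA libraries, a log2 fold change of −1.76 ± 0.18. Cenpj, which encodes a protein of the centriole and not of the centromere, had 12, 17.8 and 16.8 CPM in IP libraries and 24.0, 19.8 and 20.0 CPM in total RNA libraries. Its groups did not overlap, and its log2 fold change of −0.45 ± 0.18 missed the threshold (edgeR adjusted p = 0.0639). It passed at −0.56 without IP library 2 and at −0.58 without IP library 3. With library totals alone, limma-voom, the gene length offset and that offset with the replicate block it passed too, at −0.89, −0.47, −0.65 and −0.69.

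In the origin recognition complex Orc6 and Orc2 were depleted and Orc1, Orc3, Orc4 and Orc5 passed in neither direction. These 2 of 6 (33.3%) are near the 33.6% of all tested genes (5680 of 16929). The count was 5 with library totals alone, where 7278 of the 16929 were depleted. With an offset for gene length it was 4, where 6020 of the 16929 were. The median log2 fold change of this complex, −0.31, was nearest to 0 of all the complexes described. Orc6, the smallest subunit, had 8.03, 5.46 and 8.73 CPM in IP libraries and 36.8, 42.5 and 46.0 CPM in total RNA libraries, a log2 fold change of −2.49 ± 0.20 (edgeR adjusted p = 2.01e-05). Its mRNA was also the poorest of the 54 in the tetramers, with 2.33 per kilobase. Orc2, a core subunit, had a log2 fold change of −1.51 ± 0.18, and 29.8% of its exonic bases overlap Nif3l1 on the opposite strand. Orc1, the subunit that recognises origin chromatin, had 5.41, 4.64 and 2.77 CPM in IP libraries and 6.41, 6.23 and 6.37 CPM in total RNA libraries, both low. The groups did not overlap, but its log2 fold change was −0.57 ± 0.28 (edgeR adjusted p = 0.112). It passed at −0.82 without IP library 1 and at −1.01 with library totals alone. Orc1 shares 10.8% of its exonic bases with another gene.

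The core subunits Orc3, Orc4 and Orc5 were near the level of total RNA. Orc3 had 37.7, 34.1 and 34.5 CPM in IP libraries and 38.1, 35.1 and 35.8 CPM in total RNA libraries, a log2 fold change of −0.04 ± 0.10. Orc4 had 28.3, 22.9 and 21.7 CPM in IP libraries and 27.2, 24.6 and 23.5 CPM in total RNA libraries, a log2 fold change of −0.05 ± 0.14. Orc5 had 20.7, 16.7 and 25.1 CPM in IP libraries and 16.7, 19.6 and 19.0 CPM in total RNA libraries, a log2 fold change of 0.18 ± 0.18. In all 3 the groups overlapped, and 1 library turned the sign of each: Orc3 was at 0.03 and Orc4 at 0.05 without total RNA library 1, and Orc5 at −0.04 without IP library 3. With library totals alone as the scaling, which lowers the median of all tested genes by 0.43 on the log2 scale, Orc3 at −0.47 and Orc4 at −0.48 were depleted and Orc5 was at −0.25. With the gene length offset Orc3 at −0.37 and Orc4 at −0.51 were depleted as well, and Orc5 was at −0.16.

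Both loaders were depleted, beside 33.6% of all tested genes, each by less than 2-fold. Cdc6 had 29.0, 29.1 and 30.4 CPM in IP libraries and 35.7, 40.5 and 40.4 CPM in total RNA libraries, a log2 fold change of −0.40 ± 0.11 (edgeR adjusted p = 0.0114). Cdt1 had 41.7, 39.4 and 40.8 CPM in IP libraries and 63.3, 77.0 and 77.2 CPM in total RNA libraries, a log2 fold change of −0.83 ± 0.11 (edgeR adjusted p = 0.000273). The IP values of each loader lay within a few percent of one another and did not overlap total RNA. Cdc6 missed the threshold without total RNA library 2 or 3, at −0.33 each time (edgeR adjusted p = 0.0936 and 0.0918).

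All 6 genes of the MCM ring, the core of the replicative helicase, were depleted, beside 33.6% of all tested genes. Their median log2 fold change was −1.03. Mcm7 was lowest, at −1.42 ± 0.15, with 44.8, 30.0 and 42.5 CPM in IP libraries and 102, 107 and 106 CPM in total RNA libraries. Mcm6 had 67.3, 68.7 and 78.6 CPM in IP libraries and 183, 179 and 175 CPM in total RNA libraries, a log2 fold change of −1.32 ± 0.09. For neither gene did the groups overlap. Mcm5, the highest of the 6 per kilobase of exon (60.1 CPM per kilobase in total RNA), had 102, 83.7 and 112 CPM in IP libraries and 244, 237 and 239 CPM in total RNA libraries, a log2 fold change of −1.27 ± 0.12. Mcm4 had 60.6, 48.6 and 51.8 CPM in IP libraries and 93.1, 92.2 and 93.7 CPM in total RNA libraries, a log2 fold change of −0.79 ± 0.11. Total RNA varied little for these genes and IP library 2 was the lowest of the IP libraries for 5 of the 6, all but Mcm6. Mcm2 had 127, 95.2 and 125 CPM in IP libraries and 197, 195 and 198 CPM in total RNA libraries, a log2 fold change of −0.76 ± 0.12. Mcm3 had 97.8, 80.6 and 84.7 CPM in IP libraries and 135, 137 and 135 CPM in total RNA libraries, a log2 fold change of −0.63 ± 0.10. Mcm7 shares 12.6% of its exonic bases with other genes.

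Among the other MCM genes, 3 of 5 were depleted (60.0%, beside 33.6% of all tested genes) and Mcm9 was enriched (20.0%, beside 28.9%). MCM8 and MCM9 act together in repair by homologous recombination, and their mRNAs lay on opposite sides. Mcm8 had 7.74, 7.07 and 9.58 CPM in IP libraries and 28.6, 25.6 and 24.3 CPM in total RNA libraries, a log2 fold change of −1.69 ± 0.17 (edgeR adjusted p = 5.74e-05). Mcm9 had 33.1, 35.2 and 29.2 CPM in IP libraries and 22.2, 23.5 and 24.2 CPM in total RNA libraries, a log2 fold change of 0.48 ± 0.12 (edgeR adjusted p = 0.00851). All 3 IP libraries were above all 3 total RNA libraries for Mcm9, as for 32.2% of all tested genes. Its sign depended on the processing: it was 0.04 with library totals alone and −0.10 with an offset for gene length, and neither passed. Of its exonic bases 19.2% overlap Asf1a on the opposite strand, which was itself lower in the IP.

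Mcmbp, which binds MCM proteins in place of MCM2, had 61.0, 70.3 and 59.9 CPM in IP libraries and 61.6, 53.1 and 54.8 CPM in total RNA libraries. The groups overlapped, at a log2 fold change of 0.17 ± 0.11 (edgeR adjusted p = 0.201), which was −0.26 with library totals alone. Mcm10, which helps activate the helicase, was depleted at −0.92 ± 0.19, and Mcm3ap, which encodes a scaffold of mRNA export, at −0.68 ± 0.13.

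CDC45 and GINS had the lowest median of the complexes described, −2.18, and all 5 genes were depleted, beside 33.6% of all tested genes. Gins1 had 2.04, 0.819 and 1.67 CPM in IP libraries and 10.6, 10.9 and 12.3 CPM in total RNA libraries, a log2 fold change of −2.89 ± 0.34 (edgeR adjusted p = 0.000142). Gins4 was at −2.18 ± 0.22 and Cdc45 at −1.43 ± 0.15. Gins2 was at −2.23 ± 0.31, but 67.3% of its exonic bases overlap Gse1 on the opposite strand, which was enriched at 2.43. Gins3 was the exception in size, with 19.0, 14.9 and 17.3 CPM in IP libraries and 22.9, 25.2 and 26.2 CPM in total RNA libraries. Its log2 fold change of −0.54 ± 0.14 (edgeR adjusted p = 0.011) did not pass without total RNA library 2 or 3, at −0.49 and −0.46. It did not pass with the gene length offset either, at −0.32, or with that offset and the replicate block, at −0.28. Within the GINS complex, whose 4 proteins bind one another in equal parts, the mRNAs thus ran between −2.89 and −0.54.

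All 5 genes of replication factor C were depleted, beside 33.6% of all tested genes, with a median log2 fold change of −1.30. Rfc4, a small subunit, was lowest, with 3.81, 3.28 and 6.39 CPM in IP libraries and 27.3, 29.5 and 28.6 CPM in total RNA libraries, a log2 fold change of −2.66 ± 0.26 (edgeR adjusted p = 5.13e-05). Of its exonic bases 12.7% overlap Eif4a2 on the opposite strand, which was depleted too, at −2.59. The small subunits Rfc3, Rfc2 and Rfc5 were at −2.17 ± 0.24, −1.30 ± 0.20 and −1.28 ± 0.10. Rfc2 shares 15.1% and Rfc5 10.7% of exonic bases with other genes. Rfc1, the large subunit, was nearest to total RNA, with 61.4, 71.4 and 46.5 CPM in IP libraries and 112, 85.5 and 85.6 CPM in total RNA libraries. Its log2 fold change of −0.66 ± 0.18 (edgeR adjusted p = 0.0126) was −0.48 and did not pass without total RNA library 1, its highest. In bulk lysates of a dividing line, a low level may come from few cells in a phase or from little RNA in each cell, which cannot be told apart.

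**Figure D3:**
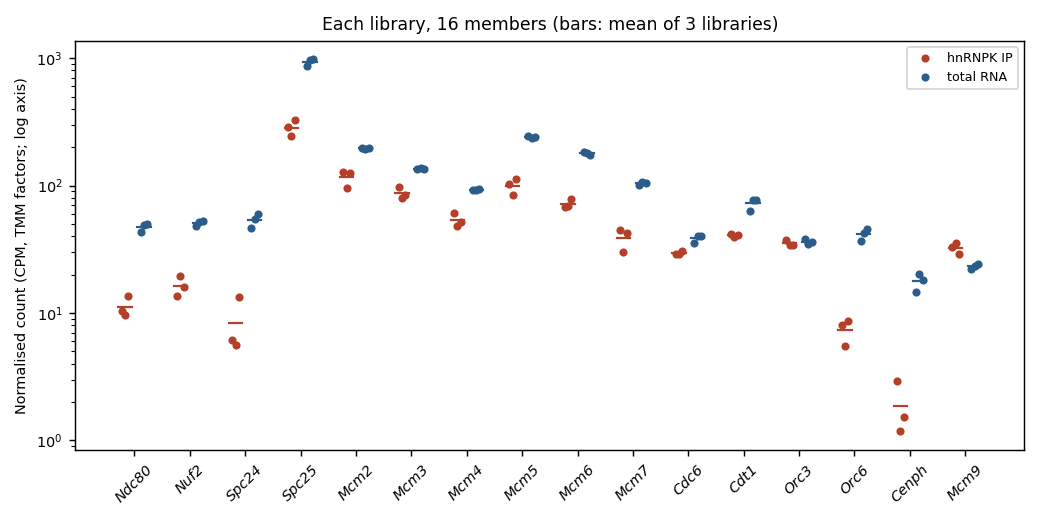
Normalised counts (CPM, log axis) of 16 of the genes (the NDC80 complex, the MCM ring, both loaders, Orc3, Orc6, Cenph and Mcm9) are drawn for each library, hnRNPK IP left of total RNA, with a bar at the mean of 3 libraries. The groups are far apart for Cenph, overlap for Orc3, and the IP points of Mcm9 lie above those of total RNA.

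Other genes of the same pathways, taken as lists, were read from the same test. These lists were chosen with earlier results of these data known. Of 25 origin firing and fork factors, 20 were depleted (80.0%, beside 33.6% of all tested genes) and 2 enriched (8.0%, beside 28.9%), with a median of −0.88. Rpa3, a subunit of the single-strand binding protein, had 1.00, 0.576 and 0.524 CPM in IP libraries and 8.35, 10.4 and 10.4 CPM in total RNA libraries, a log2 fold change of −3.80 ± 0.32. Gmnn, which encodes the CDT1 inhibitor geminin, had 5.55, 3.28 and 3.89 CPM in IP libraries and 29.4, 35.4 and 37.0 CPM in total RNA libraries, a log2 fold change of −3.0 ± 0.23. Both were far below total RNA in every IP library, which Cdt1, the target of geminin, was to a smaller extent. Ticrr, which brings CDC45 to the MCM ring, went the other way, with 83.5, 114 and 88.7 CPM in IP libraries and 31.6, 25.5 and 27.4 CPM in total RNA libraries. Its log2 fold change was 1.76 ± 0.15 (edgeR adjusted p = 2.61e-05). Tyms, the thymidylate synthase, was enriched at 0.75 ± 0.13, and with library totals alone at 0.31 it was not.

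Alternative clamp loaders share the small subunits of replication factor C or their role. Of 5 such genes, 3 were depleted (60.0%, beside 33.6% of all tested genes) and 2 passed in neither direction. Dscc1 was lowest at −2.13 ± 0.48, then Rad17 at −1.62 ± 0.16. Chtf8 at −0.16 ± 0.11 and Atad5 at 0.03 ± 0.12 overlapped total RNA, and with library totals alone both were depleted, at −0.59 and −0.40. Atad5 was also depleted with the gene length offset, at −0.43, and with that offset and the replicate block, at −0.48, and it was at −0.05 without IP library 2. Among the genes that deposit CENP-A, Oip5 (−2.18 ± 0.36) and Mis18a (−2.10 ± 0.32) were depleted. Hjurp, the chaperone that carries CENP-A, was enriched, with 602, 602 and 627 CPM in IP libraries and 417, 440 and 444 CPM in total RNA libraries, a log2 fold change of 0.49 ± 0.07 (edgeR adjusted p = 0.000511). All IP values of Hjurp were above all of total RNA, while those of Cenpa, its cargo, were all below. The call of Hjurp did not hold with library totals alone, at 0.06, or with the gene length offset, at −0.03.

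Of 26 genes of the outer kinetochore, the spindle checkpoint and the passenger complex, 19 were depleted (73.1%, beside 33.6% of all tested genes) and 4 enriched (15.4%, beside 28.9%), with a median of −0.79. Birc5, the passenger protein survivin, was lowest at −2.58 ± 0.15, and Spdl1, which helps recruit dynein to kinetochores, was at −2.16 ± 0.27. Mad1l1, a checkpoint protein, was enriched at 1.13 ± 0.10, and Pmf1, of the MIS12 complex that holds NDC80, at 0.82 ± 0.26. Pmf1 did not pass without IP library 1 or 3 or total RNA library 1, at 0.90, 0.47 and 0.67. Without IP library 1 or 3 the enriched count of this list was 1, where 4665 of 17667 and 4780 of 17642 tested genes were enriched. Of 2 proliferation markers, Top2a was depleted at −0.73 ± 0.11 and Mki67 enriched at 0.43 ± 0.14. Mki67 did not pass without IP library 1 or 2 or total RNA library 2 or 3 (0.30 to 0.42), and was at −0.01 with library totals alone and −0.21 with the gene length offset.

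**Figure D4:**
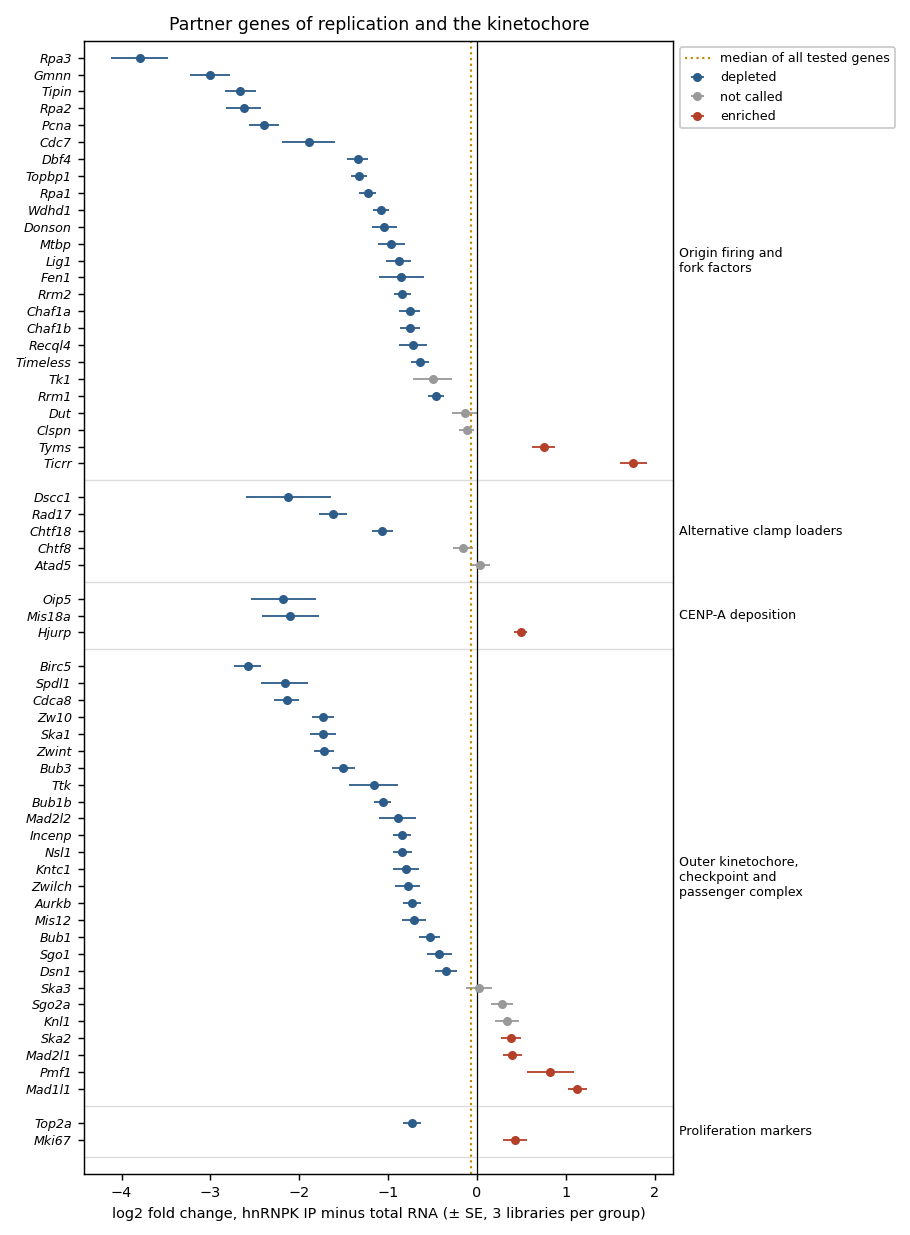
The log2 fold change of genes of the related pathway lists, hnRNPK IP minus total RNA, is drawn on the x axis with its standard error (3 libraries per group), in rows grouped by list and coloured by call. Rpa3 is lowest at −3.80 and Ticrr highest at 1.76.

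The mRNAs of the 54 genes were shorter and poorer in the tetramers than those of 13476 tested coding genes. The median mRNA was 2462 bases long, against 2994 over all coding genes, and the median 3′ UTR was 507 bases, against 955. TCCC and CCCT together occurred a median of 6.54 times per kilobase, against 9.78, and the median cytosine content was 22.8%, against 24.9%. Across genes, longer mRNAs had higher log2 fold changes. Spearman's rho with length was 0.53 over the 54 genes and 0.48 over all coding genes, and with tetramer density it was 0.35 and 0.28. Genes are not independent replicates, and length and tetramer density were taken from the same mRNA model, so these are descriptions.

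All tested coding genes were divided by mRNA length into 4 classes of equal size. In the shortest class lay 18 of the 54 genes, of which 17 were depleted, where 59.2% of all genes of that class were. Their median log2 fold change was −2.13, beside −1.46 for all genes of the class. In the next class 11 of 15 were depleted, beside 42.1%, and in the third 8 of 12, beside 29.7%. In the longest class 7 of 9 were depleted, beside 14.5%, and the medians were −0.82 for those 9 and 0.67 for all genes of the class. An offset for gene length, meaning all exonic bases of a gene and not the mRNA length of these classes, was fitted over all genes. It gave 46 of the 54 depleted, beside 6020 of all 16929 tested genes, and a median of −1.35 over the 54. It took away the calls of Cenpx and Gins3 and added those of Cenpl, Cenpj, Cenpc1, Orc3 and Orc4. By tetramer density, 28 of the 54 fell in the poorest of 4 such classes, with a median of −1.57 beside −0.61 for all genes there. The 4 in the richest class (Cenpx, Cenpt, Cenpb and Cdc6) were all depleted, beside 22.0% of all genes there, with a median of −0.78 beside 0.56.

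Cenph, Cenps and Gins1, picked for the lowest log2 fold changes, held 5.60, 6.31 and 4.60 tetramers per kilobase of mRNA. Mcmbp, Orc5 and Mcm9, picked for the highest, held 9.37, 7.61 and 12.5. The mRNAs were 1251, 1110 and 1087 bases long in the first group and 2347, 2103 and 4868 in the second. Genes picked by their values cannot show a link with density, so these are descriptions. Cenpx held 17.1, the most of the 54, and was depleted, and Orc4, near the level of total RNA, held 2.95.

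**Figure D5:**
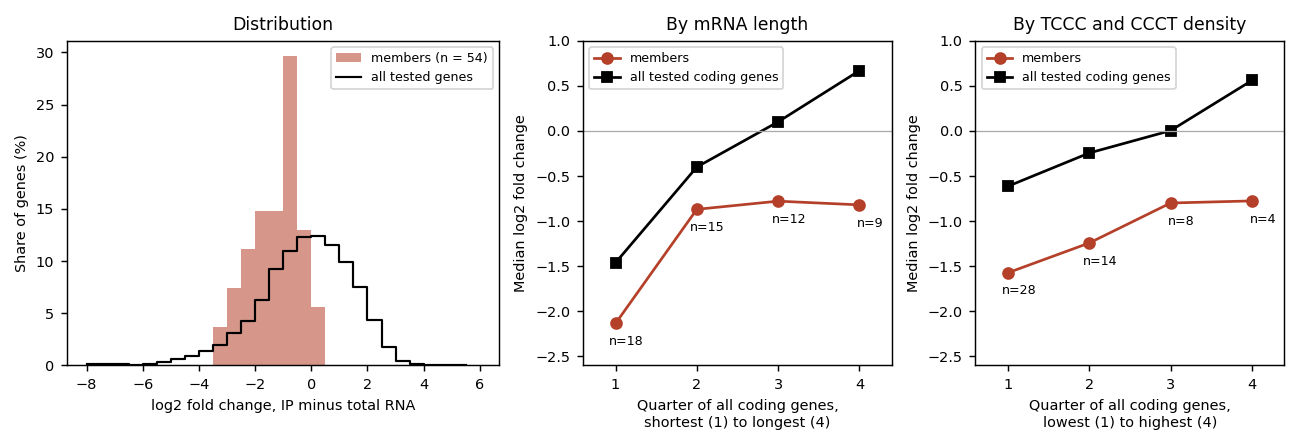
Left, the share of genes (%) by log2 fold change, hnRNPK IP minus total RNA, as bars for the 54 genes and as a line for all tested genes. Middle and right, the median log2 fold change in 4 equal classes of mRNA length and of tetramer density, with the 54 genes below all tested coding genes in each class, as at −2.13 and −1.46 in the shortest.

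Shared exons touched a part of the set. Of the 54 genes, 20 share at least 1 exonic base with another gene and 11 share 10% or more. Without those 11 genes, a choice made after seeing the data, 35 of the remaining 43 were depleted, none was enriched, and the median was −0.98. Over all tested genes, 33.6% were depleted and 28.9% enriched.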

How the data were processed

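RNA from 3 hnRNPK immunoprecipitations and 3 total RNA samples of Min6 cells was sequenced. The authors deposited 1 table of raw read counts per gene for each library. Per the submitters' processing notes, TopHat2, featureCounts and the mm10 build were used; strand setting and annotation version, not given in the sources used here, remain unknown. Among deposited counts of 1 to 20, 58.6% to 68.7% were even, and halved counts were therefore tried. Of 53379 gene identifiers, 53274 matched GENCODE M21 and 105 did not.

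CPM values were computed here from the counts with TMM factors. Genes passing filterByExpr (minimum count 10, minimum total 15) were tested with edgeR 4.0.16 (R 4.3.3) by the quasi-likelihood test, group alone, with Benjamini-Hochberg adjustment over all 16929 genes and a threshold of 0.05. The SE is the log2 fold change over the square root of F. The fit was tried on simulated counts in which few genes changed and both groups had the same spread. In these data many genes were called and the IP libraries spread more widely, so that trial does not show their error rate. DESeq2 1.42.0 and limma 3.58.1 were alternatives. Others were library totals alone, no filter, halved counts, a gene length offset (loess on exonic length, span 0.5), the replicate block and each library left out. Each mRNA model is the coding transcript with the longest coding sequence.

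Within each complex the highest and lowest genes, all NDC80, loader and MCM ring genes, and the 5 highest and 5 lowest overall are given per library. Of each other list, up to 2 highest and 2 lowest are named, except 1 that is not reported here. The genes and lists were chosen with earlier results of these data known. Replicate libraries differed by more than sampling noise (chi-square over degrees of freedom 6.40 to 123), so each counts once.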

Additional observations from a re-analysis of the deposited data

How the results depend on the processing

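Of the 43 depleted genes, 39 kept direction and call in all 14 alternatives; the exceptions were Cenpx, Gins3, Rfc1 and Cdc6. The number depleted was 49 with library totals alone, 46 with the gene length offset and 46 with limma-voom. It was 43 with DESeq2, without the filter and with halved counts, and 40 to 46 with 1 library left out. Over all 16929 tested genes the main fit gave 5680 depleted, library totals alone 7278, the length offset 6020, limma-voom 6108 and DESeq2 5722. The number was 5684 of 27077 without the filter, 5604 of 15557 with halved counts, and 4714 to 6201 with 1 library left out. Enriched genes numbered 4892 in the main fit, 3447 with library totals alone and 4523 with the length offset. Library totals alone lowered the median of all tested genes by 0.43 on the log2 scale (enriched share of calls 32.1%, against 46.3%), and the 54 genes stayed 1.03 below that median. Their own median was then −1.54, and −1.35 with the length offset. The number enriched was 0 with library totals alone, with the length offset and without the 11 genes that share exons; the enriched count of the other MCM genes, of CENP-A deposition and of proliferation markers was 0 with library totals alone and with the length offset. Depleted genes of the origin recognition complex numbered 5 with library totals alone and 4 with the length offset. Library totals alone also left 1 enriched gene among origin firing factors and 1 in the outer kinetochore list, and 5 depleted clamp loaders. With 1 library left out, loaders depleted ranged from 1 to 2, outer kinetochore genes enriched from 1 to 4, and proliferation markers enriched from 0 to 1.

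Signs turned for 8 genes. With library totals alone Mcmbp was at −0.26 and Orc5 at −0.25. With the length offset Mcm9 was at −0.10, Mcmbp at −0.050 and Orc5 at −0.16, and under DESeq2 Orc3 was at 0.0070. With 1 library left out Cenpn ranged from −0.586 to 0.0241, Cenpo from −0.362 to 0.0294, Orc3 from −0.116 to 0.0348, Orc4 from −0.206 to 0.0502 and Orc5 from −0.0354 to 0.318. The causes were not tested.

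Whether same-numbered IP and total RNA libraries came from the same lysate is not said in the labels. Deviations of same-numbered libraries correlated at 0.00, −0.07 and 0.12. Of the 6 libraries only total RNA library 3 correlated best with its own number. Correlations this weak, over 3 libraries per group, cannot decide whether the libraries were paired. The replicate block left 43 of the 54 genes depleted and 1 enriched, changed no call among them, and gave 5364 depleted and 4384 enriched genes in all. The fit with both block and length offset lowered the median of all tested genes by 0.11. It left 47 of the 54 genes depleted and 0 enriched, beside 5657 and 4009 of all 16929 tested genes. The median of the 54 was −1.34, and 4 genes of the origin recognition complex were depleted. The other MCM, CENP-A deposition and proliferation lists had 0 enriched. Cenpx was at 0.030, Mcm9 at −0.15, Mcmbp at −0.083 and Orc5 at −0.22.

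Low genes such as Gins1 and Cenps rest on 27 to 69 counts in each IP library, which limits their precision.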
